A study of Mus musculus with 54 samples.

Results

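CatSper is the calcium channel of the sperm tail, and 7 genes that encode its subunits were followed here across mouse testis and ovary RNA-seq libraries. The members were taken by gene symbol: Catsper1, Catsper2, Catsper3, Catsper4, Catsperb, Catsperd and Catsperz. All 7 were found among the 26264 genes of each of the testis and the ovary count tables. The study gave pregnant mice, from 8.5 days post-coitum, and then their offspring, drinking water with a mixture of ibuprofen, its metabolite 2-hydroxyibuprofen, the anti-inflammatory drug diclofenac and the synthetic estrogen ethinyl-estradiol. Dose 1 held 11.3, 90, 22.5 and 2.25 ng/L of these compounds in that order, dose 2 held 113, 225, 112 and 45 ng/L, and control water held 0.001% ethanol. Testes were taken at 35 days post-partum and ovaries at 30. The first generation (F1) had control, dose 1 and dose 2 groups. The second generation (F2) had 6 crosses, named here by the exposed parent: a control cross, maternal dose 1, maternal dose 2, paternal dose 1, paternal dose 2 and a biparental dose 2 cross. The labels of the F2 animals give only the groups of their parents, and name no strain. Each of the 18 groups of a tissue and generation had 3 libraries, lettered A, B and C, 54 in all. Whether the 3 came from separate animals or litters is not stated, so p-values measure only the spread between these libraries, which may be technical.

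CatSper lets calcium into the principal piece of the sperm flagellum at alkaline internal pH, and this calcium drives the hyperactivated beating that sperm need to reach and penetrate the egg. Catsper1 to Catsper4 encode the 4 different pore-forming subunits, Catsperb and Catsperd encode auxiliary membrane subunits with large extracellular parts, and Catsperz encodes a small cytoplasmic subunit. Male mice that lack any of the pore subunits are infertile, and the genes are read mainly in germ cells at and after meiosis.

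Promoter windows from RefSeq (build GRCm38.p6), each 300 bases long from 250 before to 50 after a gene's start, were matched for 6 of the 7 members by symbol. Catsper1 had no entry. Catsperd had 2 entries, from 2 start sites. The 250 bases before the start are shown for the 2 members whose windows were rich in CpG dinucleotides and for 2 whose windows were poor in them, because the first pair also had the highest levels in F2 ovary. Each is written 5′ to 3′ on the strand of the gene, with CpG in capitals: Catsper2 at chr2:121413793-121414042 (minus strand), Catsperd at its upstream start at chr17:56626797-56627046 (plus strand), Catsper4 at chr4:134227384-134227633 (minus strand) and Catsperb at chr12:101404423-101404672 (plus strand).
Catsper2: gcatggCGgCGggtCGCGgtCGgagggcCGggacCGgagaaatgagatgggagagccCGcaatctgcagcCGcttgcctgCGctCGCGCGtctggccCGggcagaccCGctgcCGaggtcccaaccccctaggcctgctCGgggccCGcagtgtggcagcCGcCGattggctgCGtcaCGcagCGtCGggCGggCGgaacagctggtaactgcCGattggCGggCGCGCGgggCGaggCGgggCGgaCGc
Catsperd: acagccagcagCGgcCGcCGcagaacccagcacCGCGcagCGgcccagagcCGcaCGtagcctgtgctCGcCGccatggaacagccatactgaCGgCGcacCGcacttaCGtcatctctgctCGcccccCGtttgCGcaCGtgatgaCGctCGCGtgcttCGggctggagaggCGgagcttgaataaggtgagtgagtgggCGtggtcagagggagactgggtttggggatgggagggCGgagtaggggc
Catsper4: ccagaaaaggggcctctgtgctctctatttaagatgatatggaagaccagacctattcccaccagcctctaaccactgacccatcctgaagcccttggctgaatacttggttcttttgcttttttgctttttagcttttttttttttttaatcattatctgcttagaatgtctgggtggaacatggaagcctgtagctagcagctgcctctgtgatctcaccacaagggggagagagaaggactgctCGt
Catsperb: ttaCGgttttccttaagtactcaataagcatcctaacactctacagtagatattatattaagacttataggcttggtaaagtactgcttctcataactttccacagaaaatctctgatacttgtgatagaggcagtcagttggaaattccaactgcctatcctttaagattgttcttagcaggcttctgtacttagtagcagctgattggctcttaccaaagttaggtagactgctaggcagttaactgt

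The stretches of Catsper2 and Catsperd held 35 and 25 CpG, and those of Catsper4 and Catsperb held 1 each. Over the whole 300-base windows, the CpG count over that predicted from the C and G content was 1.01 for Catsper2 and 0.899 for the upstream start of Catsperd. It was 0.571 for the downstream start of Catsperd, 0.394 for Catsperz, 0.147 for Catsper3, 0.123 for Catsper4 and 0.0924 for Catsperb. With CpG-rich defined as a GC content of at least 50% and a ratio of at least 0.6, the Catsper2 window and the upstream Catsperd window were CpG-rich, as were 33.5% of all 32851 windows in the table. The median ratio over all windows was 0.384, so the members stood at both ends of the range. The half-site of the cAMP response element, TGACG, searched on both strands, occurred 3 times in the upstream Catsperd window, once in the Catsper2 window and in no other member window, against 20.8% of all windows with at least 1. TGACG itself holds a CpG, and the windows that had it were the 2 CpG-rich ones, so this count is not separate from the CpG content. The letters CCAAT, also searched on both strands, occurred in the windows of Catsper2 (2 times), Catsperb (1) and Catsperz (1), and in 37.4% of all windows. These matches describe letters in a window and say nothing of binding.

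**Figure D1:**
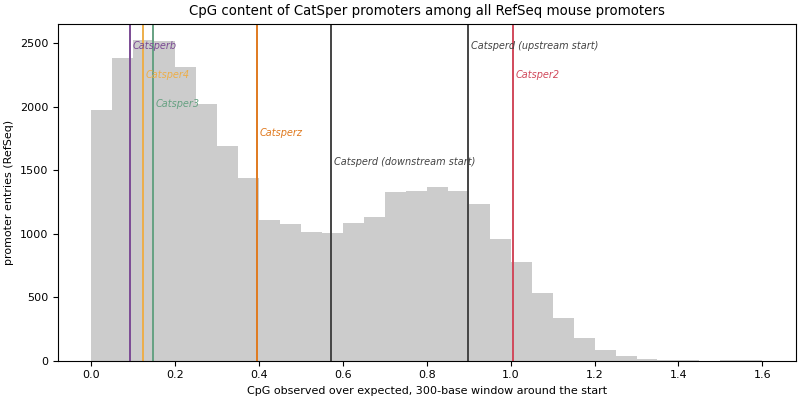
CpG observed over expected (horizontal axis) against the number of RefSeq mouse promoter windows (vertical axis, grey bars), with a line for each CatSper window. Catsper2 (1.01) and the upstream start of Catsperd (0.899) lie in the CpG-rich hump, and Catsper3, Catsper4 and Catsperb lie below 0.15.

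Total counts per library ranged from 31.8 M to 122 M in F1 testis, 31.6 M to 48.2 M in F2 testis, 36.6 M to 57.4 M in F1 ovary and 37.9 M to 84.7 M in F2 ovary (M, 1000000 counts). Testis levels are given as CPM, the counts of a gene per 1000000 counts of its library, scaled for library composition (TMM) within a generation. F1 and F2 values are therefore set side by side without a test. The TMM factors ran from 0.843 (dose 2 C) to 1.11 (dose 2 B) in F1 testis, and from 0.972 to 1.03 in F2 testis. In F1 testis, 2 of the dose 2 libraries, B and C, lay at opposite ends of the first principal component (-58.5 and 77.5), with the other 7 between -37.3 (control A) and 30.7 (dose 1 B). The labelled tissue was checked on marker lists. Spermatocyte markers summed to between 4286 and 5584 CPM in the 27 testis libraries, and 6 oocyte markers to at most 1.5 CPM. Another library stood apart in ovary: F1 ovary control A held transcripts of testis genes, as described at the end.

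All 7 members were well expressed in every testis library. Levels between genes were compared per kilobase of exon, with lengths from the basic set of the GENCODE M21 annotation and again from its full set, which holds more transcripts and longer summed exons for 5 of the 7 (the build of both differs from that of the counts). With basic lengths, Catsperz had the highest level in the F2 control cross (n = 3), 295 ± 10.7 CPM per kilobase (SD). Catsper2 followed at 129 ± 5.39, Catsper1 at 73.4 ± 3.76 and Catsperd at 69.5 ± 1.07. Catsper4 stood at 50.4 ± 1.25, Catsper3 at 40.2 ± 1.29 and Catsperb at 38.9 ± 1.41. Full lengths gave 193 ± 7.02 for Catsperz, 78.5 ± 3.28 for Catsper2, 49.5 ± 0.759 for Catsperd, 48.9 ± 1.21 for Catsper4 and 26.1 ± 0.946 for Catsperb, with Catsper1 and Catsper3 as before. The order of the means in this group was the same with both, but the distances were not. With basic lengths the ranges overlapped between Catsper1 and Catsperd and between Catsper3 and Catsperb, and with full lengths only between Catsperd and Catsper4. In the F1 control group Catsperz (346 ± 64.7 with basic and 227 ± 42.4 with full lengths) and Catsper2 (113 ± 1.12 and 68.6 ± 0.682) were again the 2 highest and Catsperb (30.2 ± 0.301 and 20.3 ± 0.203) the lowest. Catsperd (60.2 ± 1.98) stood above Catsper1 (55.1 ± 9.21) with basic lengths, where their ranges overlapped, and below it and Catsper4 (45.3 ± 6.80) with full lengths (42.9 ± 1.41), so the order of these 3 in F1 was not resolved.

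The summed CPM of the 7 members varied little between libraries, from 997 to 1186 in F1 testis and from 1099 to 1215 in F2 testis. Single members varied more, and differently. Catsperd was the steadiest: its SD of log2 CPM within groups was 0.06 in F1 and 0.04 in F2, and only 0.562% and 1.06% of all genes tested had a smaller one. Those genes were of all levels, and genes with few counts carry more counting error. The F1 value also depends on the scaling. Without it, the SD of Catsperd rose from 5.07 to 14.5 CPM in control, 5.23 to 7.58 in dose 1 and 8.41 to 13.1 in dose 2. Catsperz was the most variable member in F1 (0.42, against a median of 0.29 over all genes) and among the steadiest in F2 (0.05, against 0.15). Catsper1 had an SD of 0.28 in F1 and 0.11 in F2.

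**Figure D2:**
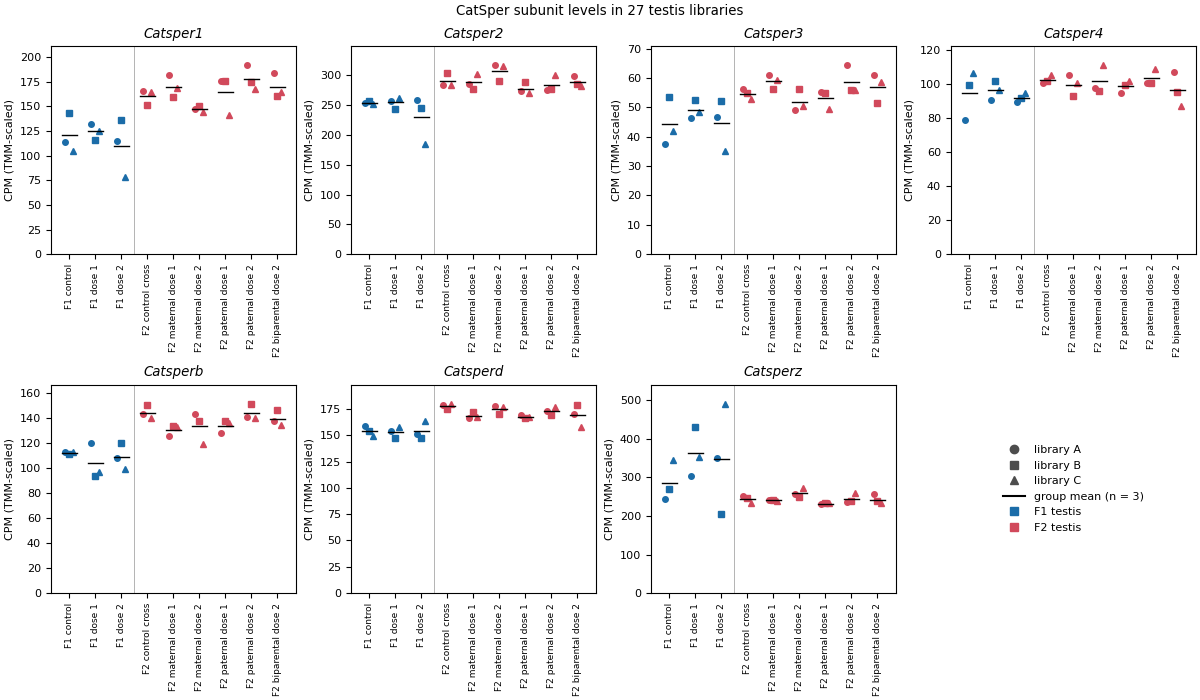
TMM-scaled CPM (vertical axis, from 0) of each CatSper member in the 9 testis groups (horizontal axis). Each point is 1 library and each bar the mean of 3. F2 libraries lie close together for all members, while in F1 Catsperz spans 204 to 491 CPM.

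In F1 testis the comparison of directly exposed animals with controls asks whether the mixture in drinking water changed these transcripts. None of the 7 members was called by edgeR's quasi-likelihood test at an adjusted p of 0.05, in dose 1 against control (0 of 7, against 0.0210% of the 19025 genes tested), in dose 2 against control (0 of 7, against 0.00526%) or in dose 2 against dose 1 (0 of 7, against 0.0263%). At an unadjusted p under 0.05 the count was also 0 in all 3 (3.18%, 1.93% and 3.31% of all genes). DESeq2 called 0 members in each, beside 25, 5 and 23 genes over the whole table. No member had groups that did not overlap, against 12.4%, 4.11% and 7.73% of all genes in either direction. The median log2 difference of the members was 0.02 for dose 1 and -0.04 for dose 2 against control, beside -0.01 and 0.01 over all genes.

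Among the pore subunits, Catsper1 had 114, 143 and 105 CPM in control libraries A, B and C. It had 133, 116 and 125 CPM in the dose 1 libraries, and 114, 136 and 77.9 CPM in the dose 2 libraries. The 3 groups overlapped, and dose 2 C was the lowest of the 9 libraries. Its log2 difference was 0.05 for dose 1 (SE 0.21, 95% interval -0.42 to 0.52) and -0.14 for dose 2 (SE 0.21, -0.61 to 0.33). Catsper2 stood between 244 and 263 CPM in 8 libraries and at 184 CPM in dose 2 C. Catsper3, at 35.1 to 53.6 CPM, was also lowest in dose 2 C. Catsper4 ranged from 79.2 to 107 CPM with both ends in the control group, so on TMM-scaled CPM the control spread covered every dosed library. Without the scaling, dose 2 C lay below every control library, and the SD of Catsper4 in dose 2 was 11.2 rather than 2.74 CPM.

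Of the auxiliary subunits, Catsperb ranged from 94.1 to 120.3 CPM and Catsperd from 147 to 163 CPM over the 9 F1 libraries. Catsperd differed from control by -0.01 on the log2 scale for dose 1 (SE 0.12, adjusted p 0.998 by edgeR) and by -0.0021 for dose 2 (SE 0.12, adjusted p 0.999). The 95% intervals of Catsperd, -0.27 to 0.25 and -0.26 to 0.26, give the sizes of change that these libraries leave possible.

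Catsperz, the cytoplasmic subunit, had 243, 270 and 346 CPM in the control libraries (286 ± 53.5, SD, n = 3). It had 304, 431 and 352 CPM in dose 1 (362 ± 64.0) and 351, 204 and 491 CPM in dose 2 (349 ± 144). The means of both dosed groups were above the control mean, the groups overlapped, and dose 2 held both the lowest and the highest of the 9 libraries. Without TMM scaling the highest was dose 1 B. The log2 difference was 0.34 for dose 1 (SE 0.30, 95% interval -0.33 to 1.01, adjusted p 0.998) and 0.29 for dose 2 (SE 0.30, -0.38 to 0.95, adjusted p 0.982; edgeR). For dose 2 the value was -0.04 without library dose 2 C, 0.56 without dose 2 B and 0.29 without both, which leaves 1 dose 2 library that is assumed to vary like the other groups. None of these values passed the threshold.

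In F1 the members went different ways in the same libraries. On TMM-scaled CPM, dose 2 C had the highest Catsperz (491 CPM) and Catsperd (163) and the lowest Catsper1 (77.9), Catsper2 (184) and Catsper3 (35.1). Its TMM factor, 0.843, was the lowest in F1 testis. Without the scaling, Catsperd was lowest in dose 2 C and Catsperz was highest in dose 1 B, so these ranks depend on it. Catsper1, Catsper2 and Catsper3 were lowest in dose 2 C either way. Dose 2 B had the lowest Catsperz (204). The ratio of Catsperz to Catsper2 CPM ran from 0.831 in dose 2 B to 2.67 in dose 2 C, a span of 3.21 times, and from 0.795 to 0.890 over the 18 F2 libraries, a span of 1.12 times. The summed CPM of elongating spermatid markers was, like Catsperz, lowest in dose 2 B (10382 CPM) and highest in dose 2 C (32433 CPM). All 12 markers, among them the protamines Prm1 and Prm2, were detected in every testis library. Single markers did not all go 1 way: in dose 2 against control, 6 had a positive and 6 a negative log2 difference (-0.34 to 0.82). By group, their sum ranged from 11997 to 23143 CPM in control, 19384 to 27181 in dose 1 and 10382 to 32433 in dose 2. The 10 round spermatid markers ranged from 1276 to 1535 CPM, far more narrowly. In F2 the elongating markers ranged from 13854 to 17821 CPM. In bulk tissue, fewer cells of a type and less RNA per cell cannot be told apart, and the part of the elongating spermatid RNA in the Catsperz values was not tested.

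**Figure D3:**
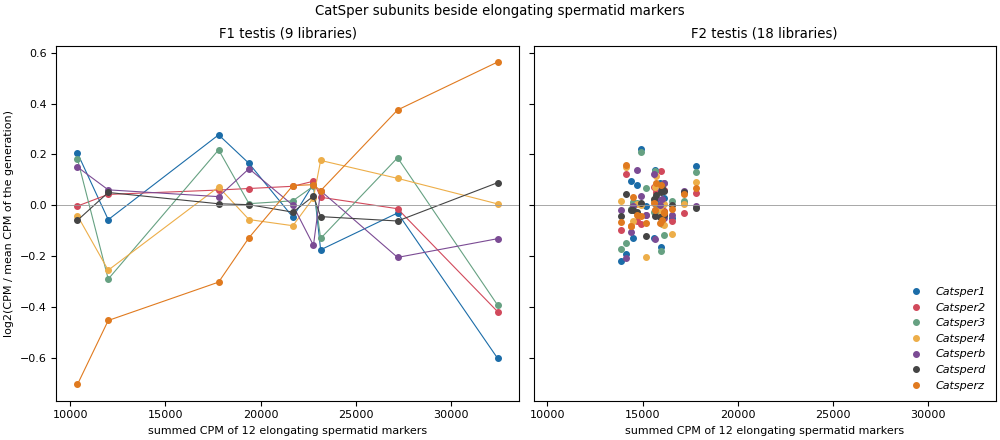
Log2 of each member's TMM-scaled CPM over its mean in the generation (vertical axis) against the summed CPM of 12 elongating spermatid markers (horizontal axis), for F1 (left, lines join the libraries in order of the marker sum) and F2 testis (right). In F1, Catsperz is lowest in the library with 10382 CPM of these markers and highest in that with 32433, where Catsper1, Catsper2 and Catsper3 are at their lowest.

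In F2 testis, each cross with an exposed parent was compared with the control cross, which addresses whether parental exposure was followed by a change in the offspring. These 5 comparisons share the 3 control cross libraries. edgeR called 0 of 7 members for maternal dose 1 (0.0103% of 19379 genes), 0 of 7 for maternal dose 2 (0.372%), 0 of 7 for paternal dose 1 (0.201%), 0 of 7 for paternal dose 2 (0.00516%) and 0 of 7 for biparental dose 2 (0.0155%). At an unadjusted p under 0.05 there was 1 member for maternal dose 1 (6.54% of all genes) and 0 for the others (15.7%, 12.5%, 5.02% and 7.02%). DESeq2 called 0 members in all 5, beside 13, 336, 234, 7 and 30 genes over the whole table in the same order. The smallest adjusted p of a member was 0.385, for Catsperz in maternal dose 2. The median log2 differences of the members were -0.02, -0.02, -0.06, 0.0061 and -0.0076 in the order above, beside medians within 0.01 of 0 over all genes.

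Catsper1 had 166, 151 and 165 CPM in the control cross libraries A, B and C. It had 181, 159 and 168 CPM in maternal dose 1 and 147, 151 and 144 CPM in maternal dose 2. It had 176, 175 and 141 CPM in paternal dose 1, 192, 174 and 167 CPM in paternal dose 2, and 184, 161 and 165 CPM in biparental dose 2. All 3 maternal dose 2 libraries lay below the control cross, and all 3 paternal dose 2 libraries lay above it. The log2 differences were -0.12 (SE 0.08, adjusted p 0.475) and 0.15 (SE 0.08, adjusted p 0.989) by edgeR, so neither passed. Catsper1 was the only member of 7 without overlap in either comparison, where 21.5% and 10.7% of all genes had none, in either direction.

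Among the other pore subunits, Catsper2 ranged from 270.3 to 317 CPM over the 18 F2 libraries, Catsper3 from 49.1 to 64.5 and Catsper4 from 87.3 to 111. None of these 3 had groups apart from the control cross in any of the 5 comparisons. Catsper4 in biparental dose 2 had both its widest group and its lowest library (107, 95.2 and 87.3 CPM).

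Catsperb had 143, 150.2 and 140.0 CPM in the control cross, 126, 134 and 133 CPM in maternal dose 1, and 128, 138 and 136 CPM in paternal dose 1. All 3 libraries of both dose 1 crosses lay below the control cross. The log2 difference was -0.14 for maternal dose 1 (SE 0.06, unadjusted p 0.0376, adjusted p 0.751, DESeq2 adjusted p 0.929) and -0.11 for paternal dose 1 (SE 0.06, adjusted p 0.502, edgeR). Catsperd also lay below the control cross in both: its control libraries had 178, 175 and 180.04 CPM, those of maternal dose 1 had 167, 172 and 167 CPM, and those of paternal dose 1 had 169.7, 166 and 167 CPM. The Catsperd log2 differences were -0.08 (SE 0.05, adjusted p 0.793) and -0.08 (SE 0.05, adjusted p 0.477; edgeR). Catsperz had 252, 245 and 234 CPM in the control cross and 230.4, 233 and 233 CPM in paternal dose 1, again without overlap, with a log2 difference of -0.07 (SE 0.05, adjusted p 0.595, edgeR). In all, 2 of 7 members had no overlap with the control cross in maternal dose 1, against 11.8% of all genes in either direction, and 3 of 7 in paternal dose 1, against 17.7%. In biparental dose 2 the count was 0, against 12.6%. Marker lists were compared in the same way. In paternal dose 1, 3 of the 12 lists had sums without overlap with the control cross. The round spermatid markers summed to 1312 to 1527 CPM against 1532 to 1548, with 9 of 10 markers at a negative difference and none called. The spermatogonia markers summed to 152 to 169 CPM against 133 to 144, and 1 of these 9 was called: Kit, a receptor of differentiating spermatogonia, rose from 24.8 ± 0.950 to 33.8 ± 1.72 CPM (log2 difference 0.45, SE 0.07, adjusted p 0.0165, edgeR). Gfra1 (-0.32), Nanos3 (-0.14) and Sohlh1 (-0.06) had negative log2 differences, and the other spermatogonia markers had positive ones. The endothelial markers summed to 33.8 to 35.0 CPM against 28.3 to 31.1. The elongating spermatid markers, at 13854 to 15908 CPM against 15599 to 17164, overlapped. In maternal dose 1 the endothelial list alone was without overlap (31.5 to 35.5 CPM). In maternal dose 2 the round spermatid (1434 to 1527 CPM) and spermatogonia lists (148 to 156 CPM) were, and in paternal dose 2 the spermatogonia (145 to 155 CPM) and endothelial lists (31.5 to 34.7 CPM). In biparental dose 2, 3 of the 12 lists were without overlap. The spermatogonia (153 to 162 CPM) and Leydig cell lists (1208 to 1338 against 897 to 1187 CPM) were higher. The oocyte list, barely expressed in testis, was lower (0.775 to 0.858 against 0.950 to 1.17 CPM). The part of these markers in the member values was not tested.

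Catsperb, Catsperd and Catsperz differences in F2 were small: the 95% intervals of all 5 comparisons with the control cross lay between 0.826- and 1.15-fold for these 3 members. For the pore subunits they lay between 0.817- and 1.25-fold.

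**Figure D4:**
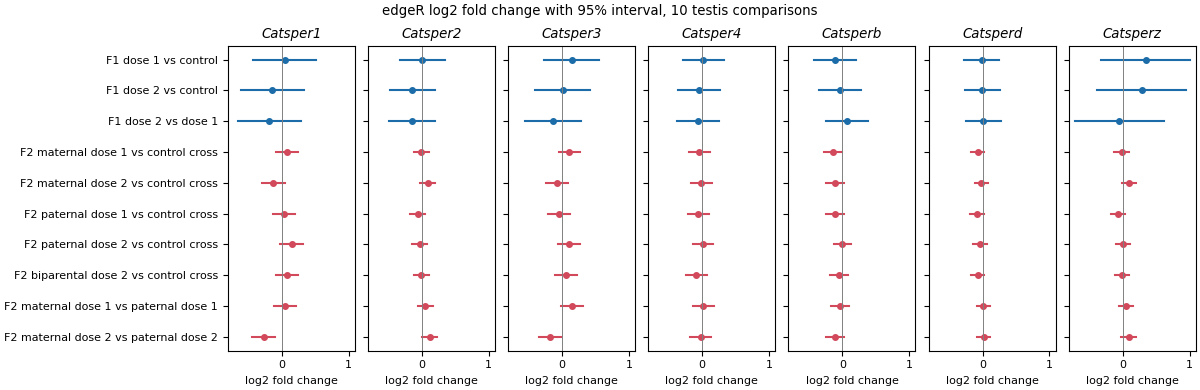
Log2 difference of each member (horizontal axis; point, edgeR estimate; bar, 95% interval) in the 10 testis comparisons (vertical axis), F1 in blue and F2 in red. The F1 intervals are wider than the F2 intervals, and the interval of Catsper1 in maternal against paternal dose 2 ends at -0.10.

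The crosses exposed through the mother were then compared with those exposed through the father at the same dose. At dose 1, edgeR called 0 of 7 members (0.0413% of all genes) and none had an unadjusted p under 0.05 (11.5%). DESeq2 called 0 members, beside 152 genes over the whole table. Catsper3 was higher without overlap in maternal dose 1, with 61.1, 56.4 and 59.2 CPM against 55.1, 54.7 and 49.5 (log2 difference 0.15, SE 0.08, adjusted p 0.469, edgeR). Catsperz was also higher without overlap, with 241, 242 and 239.8 CPM against 230.4, 233 and 233 (0.05, SE 0.05, adjusted p 0.734). These 2 of 7 stood beside 16.3% of all genes without overlap in either direction. The round spermatid markers were also higher without overlap in maternal dose 1 (1536 to 1640 against 1312 to 1527 CPM), as were the macrophage markers (51.8 to 60.1 against 46.0 to 50.9 CPM), and the spermatogonia markers were lower (139 to 142 against 152 to 169 CPM); their part in the member values was not tested.

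At dose 2, edgeR again called 0 of 7 members (0.119% of all genes), while 3 had an unadjusted p under 0.05 (16.0% of all genes) and DESeq2 called 1 (3.71% of the 12887 genes to which it gave an adjusted p). Catsper1 had 147, 151 and 144 CPM in maternal dose 2 (147 ± 3.13, SD, n = 3) and 192, 174 and 167 CPM in paternal dose 2 (178 ± 12.7). All 3 maternal libraries lay below all 3 paternal ones, and it was the only member of 7 without overlap, against 21.0% of all genes. The log2 difference of Catsper1 was -0.27 (SE 0.08, 95% interval -0.44 to -0.10, or 0.737- to 0.931-fold), with an adjusted p of 0.134 by edgeR and 0.041 by DESeq2. It was thus called by 1 tool and not by the other. Over all alternatives the difference of Catsper1 stayed between -0.31 and -0.21, and its adjusted p ran from 0.041 to 0.945. Catsper3 had 49.1, 56.2 and 50.3 CPM in maternal dose 2 against 64.5, 56.1 and 55.8 (-0.18, SE 0.08, unadjusted p 0.0311, adjusted p 0.263, edgeR), with overlap. Catsper2 lay the other way, with 317, 289.9 and 315 CPM against 275, 277 and 299.6 (0.12, SE 0.05, unadjusted p 0.0459, adjusted p 0.301), also with overlap. The elongating spermatid markers ranged from 14138 to 15991 CPM in maternal dose 2 and from 14707 to 15694 CPM in paternal dose 2, with overlap. Of the 12 marker lists 4 had none: the round spermatid markers were lower in maternal dose 2 (1434 to 1526.71 against 1526.95 to 1564 CPM), and the spermatocyte (5494 to 5584 against 5286 to 5328 CPM), Sertoli cell (1024 to 1062 against 942 to 1012 CPM) and granulosa cell markers (118 to 131 against 88.1 to 106 CPM) were higher. The part of these markers in the Catsper1 value was not tested.

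Across libraries the pore subunits did not move as a unit. Over the 18 F2 libraries, log2 CPM of Catsper1 was most like that of Catsper3 (Pearson r 0.81), and Catsper2 was most like Catsperz (0.77), while Catsper1 and Catsper2 had an r of -0.35. Over the 9 F1 libraries, Catsper1 was most like Catsper2 (0.83) and had an r of -0.71 with Catsperz. These are descriptions over libraries that share group, depth and scaling. Catsperd and Catsperz had negative r with the mean of the members in F1 (-0.48 and -0.30), with dose 2 C the highest library for both on TMM-scaled CPM.

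The genes whose log2 CPM was most like the mean of the standardised CatSper members over the 18 F2 testis libraries, among 16434 genes, were Cct6b (r 0.87), a chaperonin subunit of the testis, Tsnaxip1 (0.86), Arl9 (0.83), Phf7 (0.83), a chromatin reader of male germ cells, and Gykl1 (0.81). Nol4, Utp14b, Immt, Ggnbp2 and Hbs1l followed, with r from 0.80 to 0.78. The members themselves had lower r with this mean in F2, from 0.25 (Catsperb) to 0.69 (Catsper4). The named genes are thus like the mean, which need not make them like any single member. Over the 9 F1 libraries, among 16354 genes, they were Grip1 (0.97), Utp14b (0.97), Sort1 (0.97), Smcp (0.96), Lpp (0.96), Slc36a3 (0.96), Smap1 (0.96), Kif17 (0.95), Glrp1 (0.95) and 1 gene known only by a clone name. Utp14b was in both sets of 10. The members themselves had r with the F1 mean from -0.48 (Catsperd) to 0.82 (Catsper1), so these genes too need not be like any single member. Both sets are the highest r picked from all candidates, and in F1 they rest on only 9 libraries.

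The other genes of the CatSper complex were Catsperg1, Catsperg2, Catspere1, Catspere2, Efcab9, C2cd6, Tmem249, Tmem262 and Slco6c1. All 9 were tested, and edgeR called 0 of 9 in each of the 10 comparisons. The smallest adjusted p was that of Efcab9, the calcium sensor that binds the Catsperz protein, in maternal against paternal dose 2 (76.1 ± 9.24 against 99.2 ± 2.33 CPM, n = 3 each, log2 difference -0.38, SE 0.10, adjusted p 0.097), and DESeq2 called it there (adjusted p 0.013). Efcab9 was singled out after its values were seen. Reads of the near-identical pairs Catsperg1 with Catsperg2 and Catspere1 with Catspere2 may have been split by the counting, so their values are uncertain. Of 15 other genes of sperm ion transport and motility signalling, 14 were tested in F1 and 15 in F2, and 0 were called by edgeR in any of the 10 comparisons.

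In ovary, which makes no sperm, all 7 members stood far below testis in F2, and 5 of them had at most 0.535 CPM in any library. Unscaled CPM is used for this comparison of tissues. Over 18 F2 ovary libraries Catsperb had 0 counts, which allows up to 0.00354 CPM over the pooled libraries (a one-sided limit of 3 counts), against 138 CPM in F2 testis, at least 38898-fold higher. Catsper1 had 3 counts in all, a testis to ovary ratio of 46555 with a two-sided 95% Poisson interval of 15930 to 225748. Catsper4 had 14 counts, Catsperz 226 and Catsper3 233, with testis levels 6081-, 915- and 203-fold higher. Catsper2 (4.03 CPM, 3415 counts) and Catsperd (2.17 CPM, 1835 counts) stood above the other 5, and their testis levels were 71.7- and 79.3-fold higher. These were the 2 members with CpG-rich windows among the 6 matched. They were also the members with neighbours that ovary expressed strongly: Catsper2 overlaps Pdia3, a protein disulfide isomerase with 864 to 1306 CPM in ovary, and Catsperd lies within 1 kb of Lonp1, a mitochondrial protease with 166 to 274 CPM. Catsperd also overlaps Gm33461, a long non-coding RNA gene in RefSeq that has no entry under this symbol in the ovary counts. No source used here gives the strand setting of the counting, so reads of Catsper2 and Pdia3, and of Catsperd and Gm33461, cannot be told apart with certainty. Counting intervals and floors cover counting error only.

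In F1 ovary, control A held 4120 counts of the 7 members, or 112 CPM, against 7.84 to 17.1 CPM in the other 8 libraries. Each member stood at between 8.03% (Catsper4) and 13.8% (Catsper3) of its mean F1 testis level in control A. Markers of meiotic and later germ cells stood at similar shares there: 11.0% for spermatocytes, 11.5% for round spermatids and 8.41% for elongating spermatids. The spermatogonia markers, some of which ovary also expresses, summed to 333 CPM in control A, 211% of the F1 testis level and within the 308 to 394 CPM of the other 8 libraries. The oocyte markers of control A, at 589 CPM, were within the range of the other 8 libraries (384 to 620). In those 8 libraries the elongating spermatid markers ranged from 14.4 to 121 CPM, and Catsper1, with no strongly expressed neighbour, from 0.0439 to 0.958 CPM. In the 18 F2 ovary libraries the same markers were at most 1.34 CPM (TMM-scaled) and Catsper1 was at 0 in 16. The F1 ovary library with the most member counts thus also had the highest sums of spermatocyte, round spermatid and elongating spermatid markers, but not of spermatogonia markers, and the source of these reads was not tested.

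**Figure D5:**
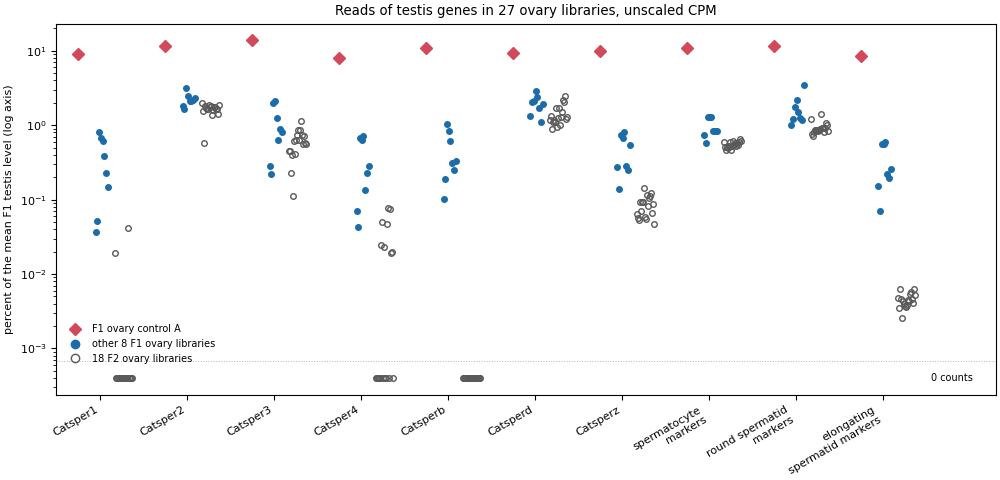
Level in each ovary library as a percent of the mean F1 testis level (vertical log axis) for the 7 members and 3 marker lists of meiotic and later germ cells (horizontal axis), unscaled CPM, with libraries at 0 counts drawn under the dotted line. F1 ovary control A (red) stands near 10% for every item, and Catsperb is at 0 counts in all 18 F2 libraries.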

How the data were processed

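The authors deposited raw counts per gene for testis and ovary, 1 column per library, made per the submitters' processing notes with bcl2fastq 2.20, FastQC 1.19, TopHat2 2.1.1, Bowtie2 2.4.5, SAMtools 1.13 and featureCounts 2.0.3 on mm39; DESeq2 1.32.0 is also named there. No source used here gives the gene annotation or strand setting. Libraries came from a stranded mRNA kit, per the labels' protocols.

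Groups follow the sample titles. F1 and F2 testis were fitted separately with edgeR 4.0.16 (R 4.3.3, limma 3.58.1): TMM factors, filterByExpr with a minimum count of 10, the quasi-likelihood F test on group means, and Benjamini-Hochberg adjustment over all genes tested, with a threshold of 0.05. All 7 members passed the filter. Likeness used log2 CPM with a prior count of 2. Alternatives were DESeq2 1.42.0, RLE factors, no filter, a replicate block, other sets of libraries, leaving out each library and, added after seeing the data, leaving out F1 dose 2 B and C. The code was tested on simulated data. The members and gene lists were chosen with earlier results of these data known. Named were the 7 members, the 10 genes most like them and listed genes that passed. Ovary was described without a test.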

Additional observations from a re-analysis of the deposited data

Results flagged for a closer look

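The 7 CatSper members summed to 112 CPM in F1 ovary control A, a tissue that none of the comparisons above used, which is above the limit of 3 counts and above the 7.84 to 17.1 CPM of the other 8 F1 ovary libraries.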

How the results depend on the processing

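The count of CatSper members called was 0 in all 10 comparisons and was recomputed 123 times under the alternatives. It was above 0 once: DESeq2 called 1 member, Catsper1, in maternal against paternal dose 2. The cause was not tested. With RLE factors, no filter, only the 6 libraries compared, all 27 testis libraries or each library left out, 0 members were called in each comparison, and the same held without F1 dose 2 B and C. Libraries of the same letter were treated as unpaired, since in no comparison did all 3 letters correlate above 0.1. Single letters reached 0.309 (A, F1 dose 1 against control) and 0.375 (C, F1 dose 2 against control). Whether a letter marks a shared litter or batch was not tested. With the replicate block 0 members were called, and the smallest adjusted p of a member was 0.054, beside 0.134 without it. Of 861 recomputed log2 differences of members, 71 had the other sign, none of them past the threshold. The number of all genes called moved more: for maternal dose 2 against the control cross it was 72, and 336 with DESeq2, 297 with the block, 40 with 6 libraries, 0 with all 27, and 0 to 67 with a library left out. For paternal dose 1 the same numbers were 39, 234, 84, 15, 0, and 3 to 53. For maternal against paternal dose 2 they were 23, 478, 280, 47, 0, and 0 to 19, with 13 by RLE factors. For maternal against paternal dose 1 they were 8, 152, 27, 2, 0, and 1 to 15. In the other 6 comparisons 1 to 5 genes were called, and 5 to 30 with DESeq2. Levels were also computed as CPM from unscaled library totals. In F1 testis this raised the SD of Catsperd in each group (from 5.07 to 14.5 CPM in control). It lowered that of Catsperz in each group (from 144 to 95.1 CPM in dose 2). With 3 libraries a group, the width of the intervals limits what could be seen, most of all for Catsperz in F1.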
